A study of Mus musculus with 8 samples.

Results

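Nr4a1, Nr4a2, Nr4a3, Fos, Fosb, Egr1, Egr2, Egr3, Jun and Junb were followed in bone marrow-derived dendritic cells (BMDCs) of mice, as 10 named genes of the 47937 in the count tables. They were chosen by name, as the NR4A nuclear receptors and well known immediate early transcription factors, by a rule that uses no measured value, but with earlier results of these data known. The BMDCs were grown from bone marrow of mice on a C57BL6/J background, at least 8 weeks old, for 8 to 9 days in 20 ng/ml GM-CSF, a cytokine that drives myeloid precursors towards dendritic cells (DCs) and macrophages. WT cells came from Cre-negative mice. The cells labelled Grk 3xKO, written 3xGrk-/- here, came, as the study describes them, from mice with the alleles Grk2 fl/fl, Grk3-/- and Grk6 fl/fl and a Vav-iCre transgene, in which Grk3 is deleted in all cells and Grk2 and Grk6 wherever the Vav promoter drives Cre, that is in blood-forming precursors and all their descendants. Each genotype was left untreated or stimulated for 1 day with 20 ng/ml lipopolysaccharide (LPS), the bacterial ligand of TLR4, with GM-CSF still present, and 2 libraries of each of these 4 groups were analysed. The methods speak of RNA isolated in technical triplicates, which does not match the 2 libraries per group analysed here, and whether those come from separate cultures or animals is not given, so the p-values measure the spread between these libraries, which may be technical.

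GRK2, GRK3 and GRK6 are kinases that phosphorylate activated G-protein coupled receptors, which ends signalling through the G protein. Immediate early genes are transcribed within minutes of a stimulus without new protein synthesis, mostly through CREB, which binds cAMP response elements (CREs) after cAMP or calcium signals, and through SRF with its ternary complex partners after MAP kinase signals. FOS and FOSB pair with JUN or JUNB to form AP-1, the EGR proteins are zinc finger factors that bind GC-rich elements, and the NR4A proteins are nuclear receptors that act without a known classical ligand. In DCs and macrophages most of these RNAs peak within hours of LPS and then decline, so that a culture sampled after 1 day holds their late levels.

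Between 4713305 and 6933358 reads per library lay on genes, and levels are given as CPM, counts scaled to a total of 1000000 of these reads, after TMM scaling between libraries. Grk2 stood at 320.2 and 321 CPM in unstimulated WT against 151 and 146 in 3xGrk-/-, and at 677 and 736 against 199 and 184 with LPS. Grk6 stood at 85.4 and 83.4 against 36.9 and 37.0 without and at 91.8 and 101 against 34.0 and 32.6 with LPS. Grk3 stood at 338 and 341 against 267 and 263 without and at 460.1 and 444 against 343 and 335 with LPS. All 3 targeted genes were lower in both 3xGrk-/- groups, with no overlap, and counts over whole genes do not separate transcripts that lack only the deleted exons. Of the markers of other cells, the summed level of 10 macrophage genes was 1018 to 1045 CPM in unstimulated WT, 1500 to 1555 in unstimulated 3xGrk-/-, 407 to 413 in LPS-stimulated WT and 2787 to 2847 CPM in LPS-stimulated 3xGrk-/- cells. The sum of 10 DC genes was 6676 to 6713, 4099 to 4166, 5936 to 6288 and 4939 to 5051 CPM in the same order, that of 6 eosinophil genes 927 to 985, 54.4 to 57.9, 913 to 984 and 36.5 to 42.9, and that of 10 neutrophil genes 721 to 766, 531 to 546, 340.2 to 396 and 188 to 205 CPM. B cell markers summed to less than 1 CPM in every library, with Pax5 at 0 in 3 groups, and those of T and NK cells to at most 5.16 CPM, with Cd3e at 0 in 3 groups. The single markers of macrophages and DCs did not all follow their sums. Between the unstimulated genotypes 5 of the 10 macrophage genes were called higher in 3xGrk-/-, 4 lower and 1 was not called (median log2 fold change 0.09), whereas with LPS all 10 were called higher (median 2.51). Of the DC genes, 4 of 9 tested were called higher and 5 lower without LPS (median -0.42), and 2 of 8 higher and 6 lower with LPS (median -0.41). Of all genes tested, 22.1% were called higher and 22.7% lower without LPS, and 24.7% higher and 24.0% lower with LPS. The cultures labelled BMDC thus held RNA of DC marker genes together with that of marker genes of other myeloid cells. The part of these cells in the values below was not tested, and in bulk RNA fewer cells of a type and less RNA per cell cannot be told apart.

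The promoters are shown first because the CRE is the element through which cAMP is known to act on the NR4A genes and Fos. Of the 10 genes, 8 had 1 or more RefSeq windows on GRCm38.p6, each of 250 bases before and 50 after a transcription start, 12 windows in all, and Egr1 and Egr3 had no entry. The core TGACG of the CRE, searched on both strands, where the other strand reads CGTCA, occurred 4 times each in the windows of Nr4a1, Nr4a2 and Nr4a3. It occurred 2 times in that of Fos, 1 time each in those of Fosb and Junb, not in that of Jun, and 2 times in each of 3 of the 5 windows of Egr2, which overlap one another. Of all 32851 windows of this length, 20.8% held the core at least 1 time, 5.01% at least 2 times and 0.231%, or 76 windows, at least 4 times. The stretches before the RefSeq start of the 3 NR4A genes, which had the most cores, and of Fos, which had the largest difference between genotypes, are printed from 5′ to 3′ with each core in capitals; that of Nr4a3 ends where GENCODE places its first exon, which leaves out 1 of the 4 cores. The RefSeq start of Nr4a1 lies 12577 bases downstream of the outermost start that GENCODE gives the gene, in an intron of the longest of its 4 transcripts and at the first base of 2 others. Nr4a1 is read from chr15:101266596-101266845 (plus strand), Nr4a2 from chr2:57124004-57124253 (minus strand), Nr4a3 from chr4:48045055-48045152 (plus strand) and Fos from chr12:85473640-85473889 (plus strand).
Nr4a1: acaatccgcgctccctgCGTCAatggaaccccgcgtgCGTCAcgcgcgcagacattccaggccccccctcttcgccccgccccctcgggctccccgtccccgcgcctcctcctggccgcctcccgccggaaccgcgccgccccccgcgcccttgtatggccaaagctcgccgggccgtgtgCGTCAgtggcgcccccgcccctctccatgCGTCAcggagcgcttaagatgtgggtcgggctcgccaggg
Nr4a2: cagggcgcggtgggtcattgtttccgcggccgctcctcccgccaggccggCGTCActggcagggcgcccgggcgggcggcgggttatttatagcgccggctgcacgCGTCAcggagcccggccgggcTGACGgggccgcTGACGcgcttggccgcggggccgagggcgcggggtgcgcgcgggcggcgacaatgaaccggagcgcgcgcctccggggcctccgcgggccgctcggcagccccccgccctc
Nr4a3: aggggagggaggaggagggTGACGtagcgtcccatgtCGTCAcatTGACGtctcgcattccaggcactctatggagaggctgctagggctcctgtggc
Fos: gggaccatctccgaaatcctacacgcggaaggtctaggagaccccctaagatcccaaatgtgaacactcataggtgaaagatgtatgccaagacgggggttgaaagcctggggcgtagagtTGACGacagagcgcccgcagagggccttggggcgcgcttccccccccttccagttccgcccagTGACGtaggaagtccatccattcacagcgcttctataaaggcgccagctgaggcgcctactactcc

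The complete CRE palindrome TGACGTCA, which would count as 2 overlapping cores, was in none of the 12 windows and in 1.79% of all windows. The AP-1 element TGANTCA was in none of them and in 7.81% of all, and the NR4A element AAAGGTCA (NBRE) in none and in 1.51% of all. The EGR element GCGNGGGCG occurred 1 time each in the windows of Nr4a1, Nr4a2 and Fosb and in 5.55% of all windows. The CArG box, the site of SRF, occurred 1 time each in 4 of the 5 Egr2 windows and in 1.63% of all windows. Some of these Egr2 windows overlap one another and may hold the same site. These are matches of letters in short windows and no measurement of binding.

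Levels between genes were compared per kilobase of exon (CPM per kb, exons joined over all transcripts of a gene in GENCODE M21). In unstimulated WT cells Nr4a3 was the highest of the 10 genes with 116 ± 2.76 CPM per kb (SD, n = 2), followed by Junb with 72.2 ± 3.61, Egr2 with 23.5 ± 1.35 and Jun with 15.1 ± 0.653. The other 6 genes lay at or under 1.17 CPM per kb, with Fosb lowest at 0.117. In unstimulated 3xGrk-/- cells Junb with 93.7 ± 0.0112 and Nr4a3 with 92.1 ± 3.74 CPM per kb stood within the spread of the Nr4a3 libraries. With LPS Junb led in both genotypes, with 165 ± 8.05 CPM per kb in WT and 210.0 ± 6.17 in 3xGrk-/- cells, and Nr4a3 followed with 144 ± 10.4 in WT and 51.5 ± 0.654 in 3xGrk-/- cells. Egr2 changed its rank from the third without LPS in both genotypes to the fifth with LPS in both, behind Jun and Nr4a2. Fos held the seventh rank in both WT groups, the fifth in unstimulated and the sixth in LPS-stimulated 3xGrk-/- cells.

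**Figure D1:**
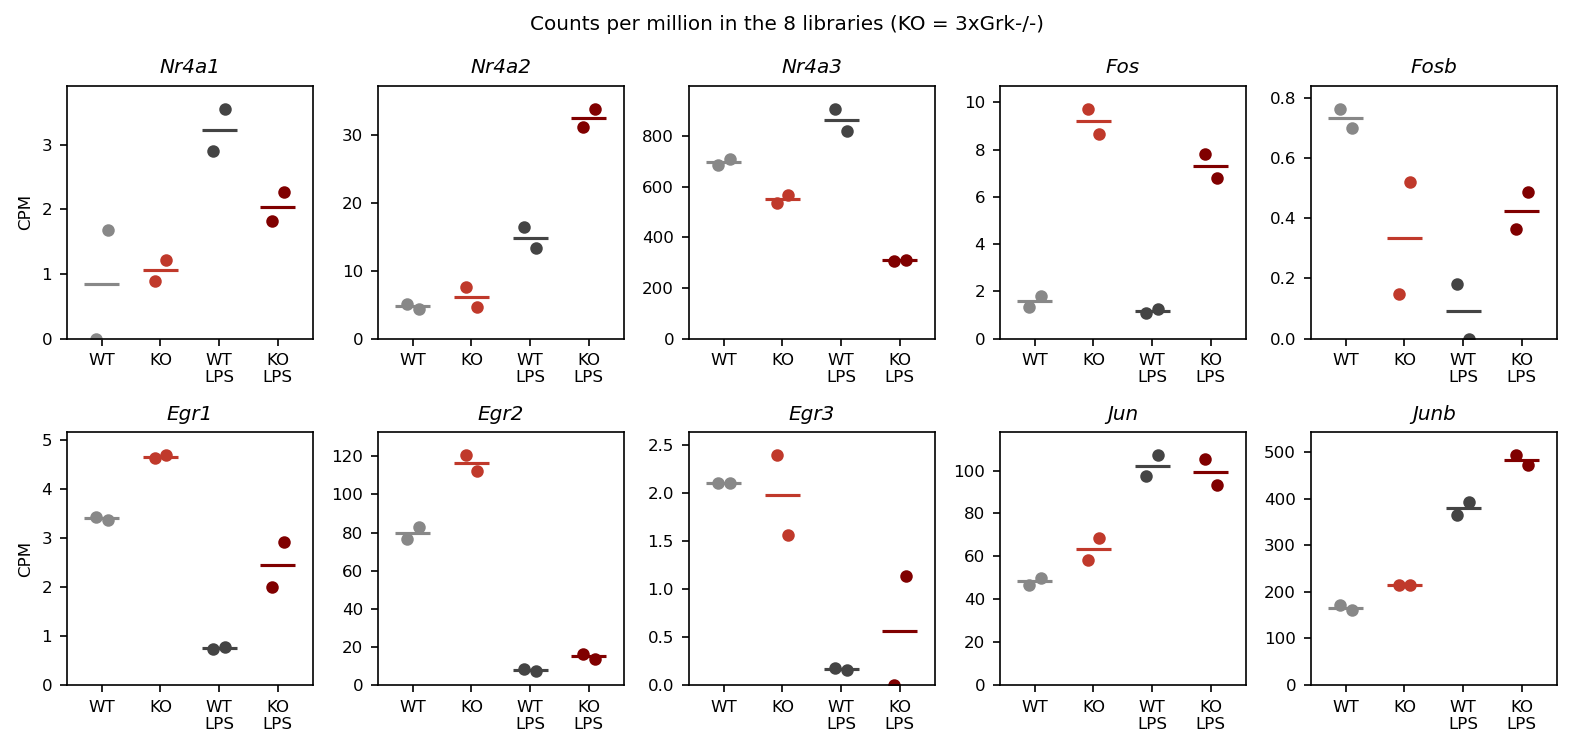
Level of each of the 10 genes in CPM (vertical axis, linear, from 0) in the 8 libraries, grouped on the horizontal axis by genotype and stimulation (KO, 3xGrk-/-), with a point for each library and a line at the mean of 2. Fos stood apart by genotype (1.09 to 1.82 CPM in WT, 6.81 to 9.72 in 3xGrk-/-), Egr2 by stimulation (76.6 to 120.4 CPM without, 7.27 to 16.2 with LPS), and Nr4a3 was highest in LPS-stimulated WT and lowest in LPS-stimulated 3xGrk-/- cells.

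The first comparison was that of the genotypes in unstimulated cells. Of the 10 genes, 8 passed the filter on low counts (edgeR's filterByExpr). Genes were called at a Benjamini-Hochberg adjusted p under 0.05, taken over every gene tested, by the quasi-likelihood test of edgeR. By this rule 4 of these 8 were higher in 3xGrk-/- cells (Fos, Egr2, Jun and Junb), 1 was lower (Nr4a3), and Nr4a2, Egr1 and Egr3 did not pass. Of all 12000 genes tested, 44.7% were called, 22.1% higher and 22.7% lower, so that 5 called of 8 has to be read against a background in which a large part of all genes differed. The median log2 fold change of the 8 was 0.40, beside -0.00 over all genes tested. The libraries of the genotypes did not overlap for 6 of the 8, beside 69.1% of all genes tested.

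In LPS-stimulated cells 8 genes were tested, Nr4a1 among them, and Fosb and Egr3 were not. Of these, 5 were higher in 3xGrk-/- cells (Nr4a2, Fos, Egr1, Egr2 and Junb), 1 was lower (Nr4a3), and Nr4a1 and Jun did not pass. The background was 48.6% of 11830 genes tested, 24.7% higher and 24.0% lower. The median log2 fold change of the 8 was 0.64, beside -0.01 over all genes tested. In 4 of the called genes, Nr4a2, Nr4a3, Fos and Egr1, the log2 fold change was 1 or more in size, beside 16.8% of all genes tested, and without LPS in Fos alone, beside 12.0%. The libraries did not overlap for 7 of the 8, beside 72.6% of all genes tested. With 2 libraries against 2 an exact two-sided permutation test of a single gene cannot go below p = 0.333, and the adjusted p rest on the spread that edgeR estimates over all genes. That spread, as a common biological coefficient of variation, was 0.0306 without and 0.0573 with LPS. With a coefficient of 0.4 in its place, Fos was the 1 gene of the members still called in each of the 2 comparisons. Of all genes tested, 448 of 12000 without LPS and 782 of 11830 with LPS were then still called.

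**Figure D2:**
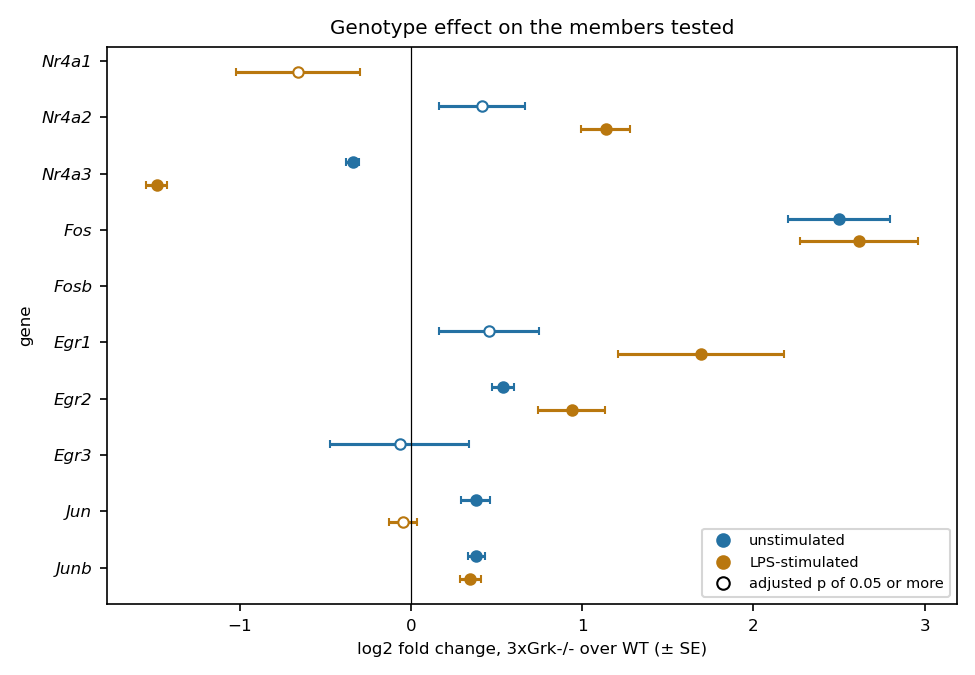
Log2 fold change of 3xGrk-/- over WT (horizontal axis, ± SE) for each member tested (vertical axis), without LPS in blue and with LPS in ochre, with open points where the adjusted p was 0.05 or more. Fos lay farthest to the right in both comparisons (2.50 and 2.62) and Nr4a3 farthest to the left (-0.34 and -1.48).

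Nr4a3, the most abundant NR4A RNA in every library, was lower in 3xGrk-/- cells in both states, and after TMM scaling LPS changed it in opposite directions in the genotypes, a rise in WT that was not called with library size alone as the scale. NR4A3 (NOR1) is known to be needed for the migration of DCs to lymph nodes. The gene (ENSMUSG00000028341) lies at chr4:48045153-48086447 on the plus strand of GRCm38. Its RNA stood at 685 and 708 CPM in unstimulated WT, at 536 and 567 in unstimulated 3xGrk-/-, at 907 and 819 in LPS-stimulated WT and at 306 and 311 CPM in LPS-stimulated 3xGrk-/- cells. No 2 groups overlapped after TMM scaling. The level was 1.26-fold lower in 3xGrk-/- cells without LPS, a log2 fold change of -0.34 ± 0.0374 (SE; edgeR adjusted p = 1.67e-18). With LPS it was 2.80-fold lower, a log2 fold change of -1.48 ± 0.0640 (edgeR adjusted p = 3.83e-14). LPS raised it 1.24-fold in WT (log2 0.31 ± 0.0518, edgeR adjusted p = 8.98e-06) and left it 1.79-fold lower in 3xGrk-/- cells (log2 -0.84 ± 0.0540, edgeR adjusted p = 1.24e-13). The test of the difference between both responses, the interaction of genotype and LPS, gave -1.15 ± 0.0748 on the log2 scale (edgeR adjusted p = 8.90e-13). Without TMM, with library size alone as the scale, the median of all genes moved to -0.23 in both LPS responses, and the difference of Nr4a3 with LPS in WT was 0.09 on the log2 scale (edgeR adjusted p = 0.126). Per 1000000 counts on genes it then stood at 761 and 782 in unstimulated and at 870.3 and 778 in LPS-stimulated WT, which overlap.

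Nr4a2 rose with LPS in both genotypes and was higher in LPS-stimulated 3xGrk-/- than in WT cells. NR4A2 (NURR1) is best known for its role in dopaminergic neurons and is also induced in macrophages by inflammatory stimuli. The gene (ENSMUSG00000026826) lies at chr2:57106830-57124003 on the minus strand. It stood at 5.16 and 4.34 CPM in unstimulated WT, at 7.63 and 4.69 in unstimulated 3xGrk-/-, at 16.5 and 13.3 in LPS-stimulated WT and at 31.3 and 33.9 CPM in LPS-stimulated 3xGrk-/- cells. The unstimulated groups overlapped and each LPS-stimulated group lay above both. Without LPS the genotypes differed by 0.42 ± 0.251 on the log2 scale (edgeR adjusted p = 0.171), a value that 1 library decided: without replicate 2 of unstimulated 3xGrk-/- it was 0.70 (edgeR adjusted p = 0.0401), and without replicate 1 it was 0.00. With LPS Nr4a2 was 2.20-fold higher in 3xGrk-/- cells (log2 1.14 ± 0.143, edgeR adjusted p = 9.71e-07). LPS raised it 3.14-fold in WT (log2 1.65 ± 0.218, edgeR adjusted p = 1.90e-07) and 5.20-fold in 3xGrk-/- cells (log2 2.38 ± 0.174, edgeR adjusted p = 1.84e-12). The responses differed by 0.73 ± 0.306 on the log2 scale (edgeR adjusted p = 0.0719), and this difference was called without replicate 1 of unstimulated 3xGrk-/- (1.14, edgeR adjusted p = 0.0153) and without replicate 1 of LPS-stimulated WT (0.88, edgeR adjusted p = 0.0230).

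Nr4a1, which encodes NUR77, a receptor that marks antigen receptor signalling in lymphocytes and is required for patrolling monocytes, was scarce in these cultures. The gene (ENSMUSG00000023034) lies at chr15:101254269-101274795 on the plus strand. It had 0 and 12 counts in unstimulated WT (0 and 1.68 CPM, where 0 counts allow up to 0.573 CPM), 6 and 7 in unstimulated 3xGrk-/- (0.898 and 1.22 CPM), 16 and 23 in LPS-stimulated WT (2.90 and 3.56 CPM) and 10 and 14 counts in LPS-stimulated 3xGrk-/- cells (1.82 and 2.27 CPM). The LPS-stimulated libraries of both genotypes lay above all unstimulated ones. The ratio of 3xGrk-/- to WT CPM-scaled counts without LPS was 1.08, with an exact (Clopper-Pearson) 95% interval from 0.453 to 2.58. Such intervals cover counting error only, as do the floors for a count of 0. With LPS the log2 fold change was -0.66 ± 0.362 (edgeR adjusted p = 0.141). The rise with LPS in WT was 1.73 ± 0.533 on the log2 scale (edgeR adjusted p = 0.00591), and it was 0.94 (edgeR adjusted p = 0.104) without replicate 1 of unstimulated WT, the library with 0 counts, and 7.26 (edgeR adjusted p = 0.000114) without replicate 2, when the remaining library of that group has 0 counts and the fitted value depends on edgeR's prior count. In 3xGrk-/- cells the response was 0.96 ± 0.586 (edgeR adjusted p = 0.162), and the difference between the responses was -0.77 ± 0.831 (edgeR adjusted p = 0.526). The same 2 libraries decide this value, which was 0.0395 (edgeR adjusted p = 0.982) without replicate 1 of unstimulated WT and -6.29, and called (edgeR adjusted p = 0.0130), without replicate 2.

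The makeup of the NR4A family differed accordingly. Nr4a3 made up 98.7 to 98.9% of the summed NR4A level per length in unstimulated WT, 97.7 to 98.4% in unstimulated 3xGrk-/-, 96.9 to 97.0% in LPS-stimulated WT and 85.3 to 86.1% in LPS-stimulated 3xGrk-/- libraries. The share of Nr4a2 was 13.0 to 13.7% in LPS-stimulated 3xGrk-/- libraries and 2.32 to 2.60% in LPS-stimulated WT. The sum itself was 115.7 to 119.9 CPM per kb in unstimulated WT, 91.6 to 96.3 in unstimulated 3xGrk-/-, 141 to 156 in LPS-stimulated WT and 59.3 to 61.0 CPM per kb in LPS-stimulated 3xGrk-/- libraries. On this scale the higher level of Nr4a2 in LPS-stimulated 3xGrk-/- cells did not make up for the lower level of Nr4a3.

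**Figure D3:**
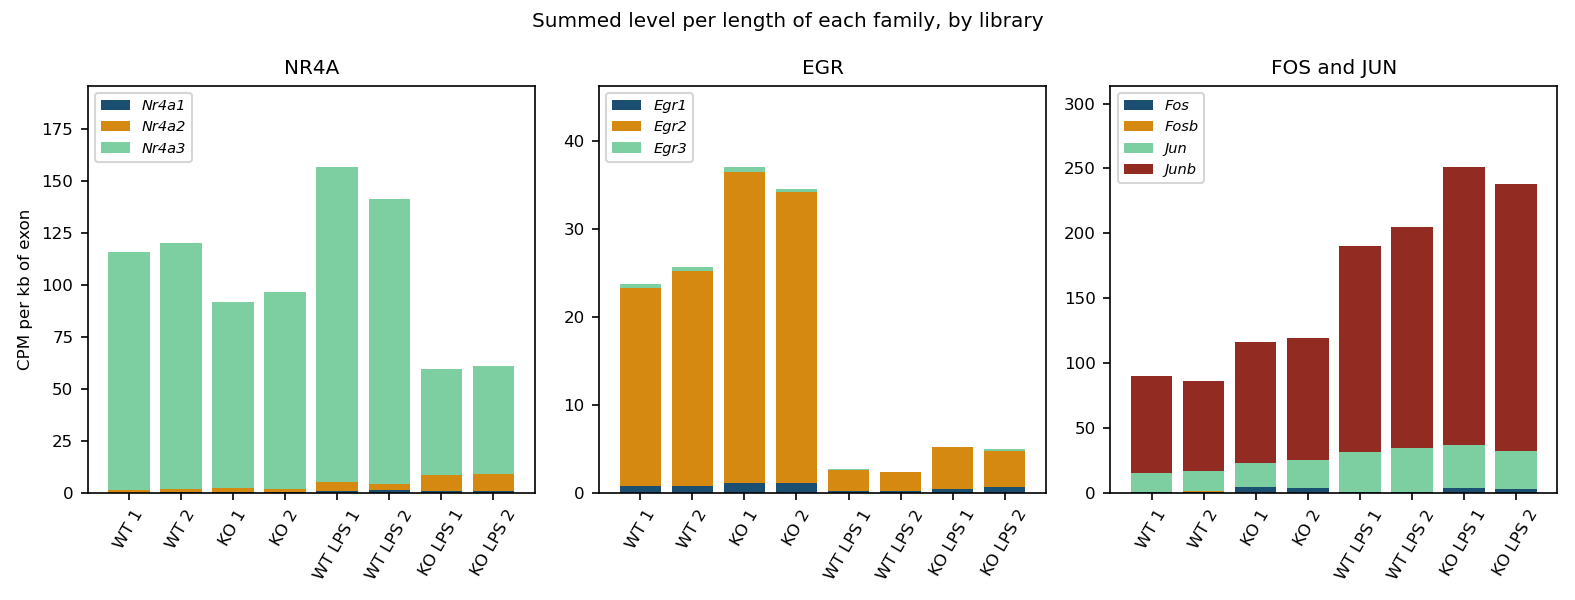
Summed level per length of the NR4A, EGR and FOS and JUN genes in each of the 8 libraries (bars, CPM per kb of exon, from 0), with the contribution of each gene in its own colour. Nr4a3 filled most of the NR4A bars, 85.3 to 98.9%, Egr2 most of the EGR bars, 81.7 to 95.9%, and Junb most of the FOS and JUN bars, 78.8 to 86.4%.

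All 3 EGR genes fell with LPS in both genotypes, and in LPS-stimulated cells Egr1 and Egr2 were higher in 3xGrk-/- than in WT. Egr2, which encodes KROX20, a factor known from myelination, T cell anergy and alveolar macrophages, was the abundant member. The gene (ENSMUSG00000037868) lies at chr10:67535475-67542188 on the plus strand. It stood at 76.6 and 83.1 CPM in unstimulated WT, at 120.4 and 113 in unstimulated 3xGrk-/-, at 8.35 and 7.27 in LPS-stimulated WT and at 16.2 and 13.8 CPM in LPS-stimulated 3xGrk-/- cells. No 2 groups overlapped, and 3xGrk-/- lay above WT in both states. The genotype difference was 1.45-fold without LPS (log2 0.54 ± 0.0657, edgeR adjusted p = 2.13e-15) and 1.92-fold with LPS (log2 0.94 ± 0.194, edgeR adjusted p = 0.000373). LPS lowered Egr2 10.3-fold in WT (log2 -3.36 ± 0.126, edgeR adjusted p = 4.10e-19) and 7.81-fold in 3xGrk-/- cells (log2 -2.96 ± 0.105, edgeR adjusted p = 1.08e-19). The 2 responses differed by 0.40 ± 0.194 on the log2 scale (edgeR adjusted p = 0.120).

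Egr1, a factor induced in most cells by growth factors and linked to macrophage differentiation, was expressed at low counts. The gene (ENSMUSG00000038418) lies at chr18:34859823-34864984 on the plus strand. It stood at 3.44 and 3.36 CPM in unstimulated WT, at 4.64 and 4.69 in unstimulated 3xGrk-/-, at 0.726 and 0.774 in LPS-stimulated WT and at 2.0 and 2.92 CPM in LPS-stimulated 3xGrk-/- cells. The groups did not overlap, with 3xGrk-/- above WT in both states. Without LPS the genotype difference did not pass (log2 0.45 ± 0.292, edgeR adjusted p = 0.202). With LPS, where the 2 WT libraries held 9 counts in all and those of 3xGrk-/- 29, Egr1 was 3.24-fold higher (log2 1.70 ± 0.486, edgeR adjusted p = 0.00572), and the ratio of the CPM-scaled counts was 3.31 with an exact 95% interval from 1.52 to 7.94. Without replicate 2 of LPS-stimulated 3xGrk-/- the value was 1.40 and not called (edgeR adjusted p = 0.194), nor was it by DESeq2 (1.72, adjusted p = 0.121). LPS lowered Egr1 4.42-fold in WT (log2 -2.15 ± 0.449, edgeR adjusted p = 0.000139). In 3xGrk-/- cells it lowered Egr1 1.87-fold (log2 -0.90 ± 0.316, edgeR adjusted p = 0.0164), a call that was lost by DESeq2 (adjusted p = 0.166) and without replicate 1 of LPS-stimulated 3xGrk-/- (-0.67), replicate 1 of unstimulated 3xGrk-/- (-0.91) or replicate 2 of unstimulated 3xGrk-/- (-0.90). The responses differed by 1.24 ± 0.583 on the log2 scale (edgeR adjusted p = 0.101).

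Egr3, a partner of EGR2 in lymphocytes, was at the limit of this depth after LPS. The gene (ENSMUSG00000033730) lies at chr14:70077203-70082614 on the plus strand. It had 11 and 15 counts in unstimulated WT (2.1 CPM in both), 16 and 9 in unstimulated 3xGrk-/- (2.39 and 1.56 CPM), 1 and 1 in LPS-stimulated WT (0.181 and 0.155 CPM) and 0 and 7 counts in LPS-stimulated 3xGrk-/- cells (0 and 1.13 CPM, where 0 counts allow up to 0.545 CPM). The genotypes overlapped in both states, and every unstimulated library lay above every LPS-stimulated one. The genotype difference without LPS was -0.06 ± 0.407 on the log2 scale (edgeR adjusted p = 0.914), and with LPS the ratio of the CPM-scaled counts was 3.59 with an exact 95% interval from 0.684 to 35.4. The log2 fold change of Egr3 with LPS in WT was -3.50 (SE 0.858, edgeR adjusted p = 0.000582), and the ratio of 2 to 26 counts, CPM-scaled, was 0.0795 with an exact 95% interval from 0.00914 to 0.317. In 3xGrk-/- cells the log2 fold change was -1.71 ± 0.644 (edgeR adjusted p = 0.0234). That call was lost without replicate 1 of LPS-stimulated 3xGrk-/- (-0.81, edgeR adjusted p = 0.305), without replicate 1 of unstimulated 3xGrk-/- (-1.35, edgeR adjusted p = 0.205) and by DESeq2 (-1.76, adjusted p = 0.130), and without replicate 2 of LPS-stimulated 3xGrk-/-, which leaves a library with 0 counts, the fitted value was -6.62. The responses differed by 1.79 ± 1.29 on the log2 scale (edgeR adjusted p = 0.284), and without replicate 2 of LPS-stimulated 3xGrk-/- the sign turned (-3.12, edgeR adjusted p = 0.458).

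The summed EGR level per length was 23.8 to 25.7 CPM per kb in unstimulated WT and 34.5 to 37.0 in unstimulated 3xGrk-/- libraries. After LPS it was 2.35 to 2.66 CPM per kb in WT and 4.96 to 5.21 in 3xGrk-/- libraries. The 10 macrophage markers were all called higher in LPS-stimulated 3xGrk-/- cells, and the 6 eosinophil markers were all called lower there. Of all genes tested, 24.7% were called higher and 24.0% lower in this comparison. These markers moved with the same contrast, and their part in the EGR values was not tested.

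Fos showed the largest genotype difference of the 10 genes and no called response to LPS. FOS is the classic AP-1 subunit that is induced and lost again within hours. The gene (ENSMUSG00000021250) lies at chr12:85473890-85477273 on the plus strand. It stood at 1.34 and 1.82 CPM in unstimulated WT, at 9.72 and 8.68 in unstimulated 3xGrk-/-, at 1.09 and 1.24 in LPS-stimulated WT and at 7.82 and 6.81 CPM in LPS-stimulated 3xGrk-/- cells. All 4 libraries of 3xGrk-/- lay above all 4 of WT. These levels rest on 20, 115, 14 and 85 counts in the 2 libraries of each group, in the same order. Fos was 5.66-fold higher in 3xGrk-/- cells without LPS (log2 2.50 ± 0.296, edgeR adjusted p = 2.06e-16) and 6.14-fold higher with LPS (log2 2.62 ± 0.345, edgeR adjusted p = 1.68e-06). The exact 95% intervals of the CPM-scaled count ratios were 3.53 to 9.71 without and 3.52 to 11.9 with LPS. The response to LPS was -0.46 ± 0.476 on the log2 scale in WT (edgeR adjusted p = 0.424) and -0.34 ± 0.208 in 3xGrk-/- cells (edgeR adjusted p = 0.168), and the latter was called at -0.56 (edgeR adjusted p = 0.0224) with library size alone as the scale. The 2 responses differed by 0.12 ± 0.522 (edgeR adjusted p = 0.895), an error that leaves room for a sizeable difference in either direction.

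Fosb was at or near the floor in all groups. FOSB is a close relative of FOS. The gene (ENSMUSG00000003545) lies at chr7:19302696-19310051 on the minus strand. It had 4 and 5 counts in unstimulated WT (0.764 and 0.701 CPM), 1 and 3 in unstimulated 3xGrk-/- (0.15 and 0.521 CPM), 1 and 0 in LPS-stimulated WT (0.181 and 0 CPM, where 0 counts allow up to 0.464 CPM) and 2 and 3 counts in LPS-stimulated 3xGrk-/- cells (0.364 and 0.486 CPM). It passed no filter and was not tested. The ratio of 3xGrk-/- to WT CPM-scaled counts without LPS was 0.442, with an exact 95% interval from 0.0994 to 1.58. The ratio of LPS-stimulated to unstimulated WT was 0.115, with an interval from 0.00262 to 0.828. Both LPS-stimulated groups, and both 3xGrk-/- groups, were at or under 3 counts in each library, and no fold is given between them.

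Jun and Junb were abundant in every library and rose with LPS in both genotypes. JUN is the AP-1 subunit phosphorylated by JNK, and JUNB a subunit prominent in activated myeloid cells. Junb (ENSMUSG00000052837, chr8:84974484-84978718, minus strand) stood at 172 and 160.2 CPM in unstimulated WT, at 215.7 and 215.7 in unstimulated 3xGrk-/-, at 366 and 393 in LPS-stimulated WT and at 493 and 473 CPM in LPS-stimulated 3xGrk-/- cells. No 2 groups overlapped, and 3xGrk-/- lay above WT in both states. Junb was 1.30-fold higher in 3xGrk-/- cells without LPS (log2 0.38 ± 0.0497, edgeR adjusted p = 1.44e-13) and 1.27-fold higher with LPS (log2 0.35 ± 0.0604, edgeR adjusted p = 6.06e-05). LPS raised it 2.29-fold in WT (log2 1.20 ± 0.0572, edgeR adjusted p = 1.28e-16) and 2.24-fold in 3xGrk-/- cells (log2 1.16 ± 0.0555, edgeR adjusted p = 1.30e-16). The responses differed by -0.03 ± 0.0794 on the log2 scale (edgeR adjusted p = 0.808).

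Jun was higher in 3xGrk-/- cells without LPS, and its rise with LPS was smaller there than in WT. Jun (ENSMUSG00000052684, chr4:95049034-95052222, minus strand) stood at 46.8 and 49.8 CPM in unstimulated WT, at 58.3 and 68.4 in unstimulated 3xGrk-/-, at 97.3 and 107 in LPS-stimulated WT and at 105 and 93.4 CPM in LPS-stimulated 3xGrk-/- cells. The LPS-stimulated groups overlapped and the unstimulated ones did not. Jun was 1.30-fold higher in 3xGrk-/- cells without LPS (log2 0.38 ± 0.0852, edgeR adjusted p = 3.60e-05) and differed by -0.04 ± 0.0829 with LPS (edgeR adjusted p = 0.695), where the ratio of the CPM-scaled counts was 0.966 with an exact 95% interval from 0.891 to 1.05. LPS raised it 2.11-fold in WT (log2 1.08 ± 0.0882, edgeR adjusted p = 1.80e-11) and 1.57-fold in 3xGrk-/- cells (log2 0.65 ± 0.0850, edgeR adjusted p = 1.93e-07). The difference between the responses was -0.43 ± 0.123 on the log2 scale (edgeR adjusted p = 0.00811). It was not called by DESeq2 (adjusted p = 0.0626), nor without replicate 2 of LPS-stimulated 3xGrk-/- (-0.34), without replicate 2 of unstimulated 3xGrk-/- (-0.31) or without replicate 1 of unstimulated WT (-0.37).

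In exons, 232 bases of Jun lie opposite the antisense gene Junos, which had 257 counts over all libraries, and 173 bases of Junb lie opposite Prdx2, which had 8272. The kit marks strand, but the sources used here do not say whether the counting used it, so reads from these overlaps cannot be told apart. Of the summed level of Fos, Fosb, Jun and Junb per length, Fos made up 0.631 to 0.900% in unstimulated WT, 3.10 to 3.56% in unstimulated 3xGrk-/-, 0.243 to 0.257% in LPS-stimulated WT and 1.22 to 1.32% in LPS-stimulated 3xGrk-/- libraries. The sum was 86.1 to 90.1 CPM per kb in unstimulated WT, 116 to 119 in unstimulated 3xGrk-/-, 190.2 to 205 in LPS-stimulated WT and 238 to 251 CPM per kb in LPS-stimulated 3xGrk-/- libraries. Jun and Junb thus set the level of the group in every library, and the large relative difference of Fos was a small part of it.

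For the response to LPS as a whole, 9 of the 10 genes were tested in one fit of all 8 libraries, and Fosb was not. In WT 5 were higher after LPS (the 3 NR4A genes, Jun and Junb) and 3 lower (the EGR genes), against 60.3% of 12541 genes called, 29.5% higher and 30.8% lower. The change was 1 or more in size on the log2 scale for 7 of them, beside 21.5% of all genes tested, and for all 9 the libraries with and without LPS did not overlap, beside 78.2%, although those of Nr4a3 did with library size alone as the scale. In 3xGrk-/- cells 3 were higher (Nr4a2, Jun and Junb) and 4 lower (Nr4a3 and the EGR genes), against 55.4% of genes, 28.0% higher and 27.4% lower. It was 1 or more in size for 4 of them, beside 18.9%, and again the libraries did not overlap for all 9, beside 77.6%. The test of the difference between the responses called 2 of the 9, Nr4a3 and Jun, both lower in 3xGrk-/-, against 32.5% of genes, 16.5% higher and 16.0% lower, and 1 of them, Nr4a3, by 1 or more in size, beside 11.0%. The call of Jun was lost by DESeq2 and in 3 of the 8 fits that each leave out 1 library. The WT and 3xGrk-/- responses use different libraries and were fitted with one common estimate of the spread. For Egr1, Egr2 and Egr3 the fall in 3xGrk-/- cells was smaller in value than in WT, but the test did not call these differences, and for Egr3 the order rested on 1 library and turned without it. Whether unstimulated and LPS-stimulated libraries were sequenced in one run is not given in the sources used here, and a difference between runs and LPS cannot be told apart.

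**Figure D4:**
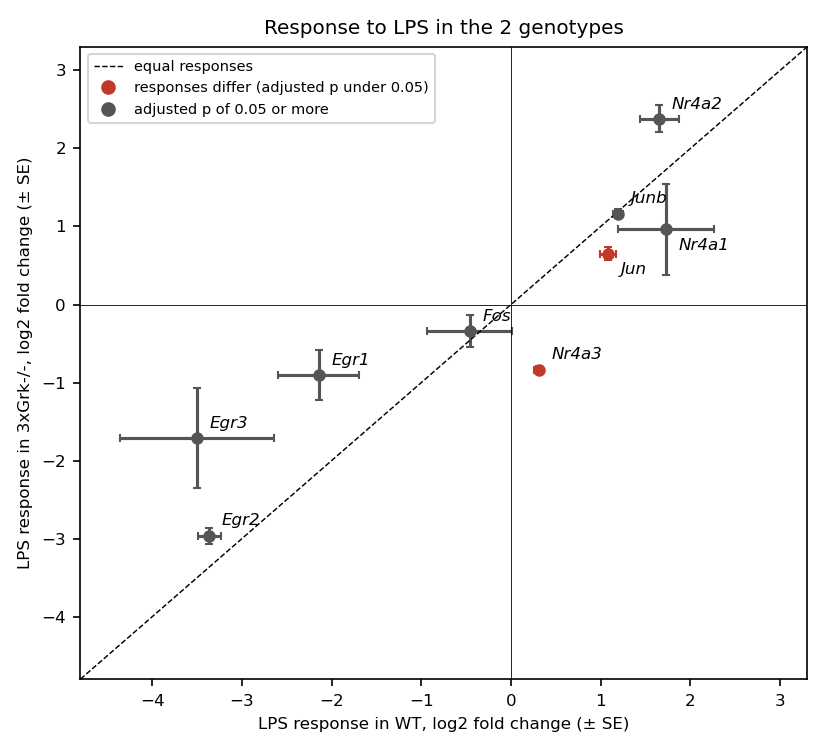
Response to LPS in WT (horizontal axis) against that in 3xGrk-/- cells (vertical axis), as log2 fold change ± SE for the 9 genes tested, with a dashed line where both responses are equal. Nr4a3 lay to the right of and below zero (0.31 in WT, -0.84 in 3xGrk-/-), Jun below the line (1.08 and 0.65), and both are in red because their responses differed at an adjusted p under 0.05, a call that for Jun was lost by DESeq2 and without each of 3 libraries.

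Among the remaining genes of the AP-1 and ATF family, 5 of 11 were higher, 1 was lower and 5 did not pass between the unstimulated genotypes, beside 44.7% of all genes called, with a median log2 fold change of 0.18 beside -0.00 over all genes tested. The largest called were Fosl1 (FRA1, 0.382 and 0.561 CPM in WT, 2.69 and 1.74 in 3xGrk-/-, log2 2.17 ± 0.572), Fosl2 (FRA2, 64.4 and 76.0 against 142 and 143 CPM, log2 1.0 ± 0.0643) and Atf3, a stress-induced repressor of inflammatory genes (56.9 and 56.1 against 82.0 and 87.7 CPM, log2 0.58 ± 0.0772). With LPS 6 of the 10 tested were higher, 2 lower and 2 did not pass, beside 48.6% of all genes called, with a median of 0.25 beside -0.01. Jdp2, a JUN dimerization partner that represses AP-1, rose from 35.6 and 42.4 CPM in WT to 133 and 117 in 3xGrk-/- (log2 1.67 ± 0.0988), followed by Batf2 (log2 1.04 ± 0.168) and Atf3 (log2 0.77 ± 0.0683). LPS raised Batf, Fosl2 and Jdp2 most in WT (log2 3.01 ± 0.138, 2.01 ± 0.0663 and 1.60 ± 0.138), where 6 of 11 were higher and 1 lower beside 60.3% of all genes called, and Jdp2, Batf and Atf3 most in 3xGrk-/- cells (log2 3.20 ± 0.115, 2.40 ± 0.135 and 1.26 ± 0.0649), where 8 were higher and 1 lower beside 55.4%. The responses of Jdp2 (1.59 ± 0.198), Fosl2 (-0.83 ± 0.0903) and Batf (-0.61 ± 0.223) differed most among the 2 called higher and 4 called lower, beside 32.5% of all genes called.

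Of 16 other immediate early and early response genes, 14 were tested, and these moved in both directions. In unstimulated 3xGrk-/- cells 8 rose above WT and 3 fell below it, beside 44.7% of all genes called, and the median was 0.23 beside -0.00 over all genes. Klf10, a factor induced by TGF-beta, had the largest called difference (14.7 and 14.7 CPM in WT, 27.4 and 32.0 in 3xGrk-/-, log2 1.0 ± 0.135), before Btg2, an antiproliferative gene (log2 -0.79 ± 0.0806), and Ier3 (log2 0.59 ± 0.105). In the LPS-stimulated cells 5 were above WT and 7 below, beside 48.6% of all genes called, and the median was -0.14 beside -0.01. Klf10 stood at 3.63 and 3.87 CPM in WT against 25.8 and 30.5 in 3xGrk-/- (log2 2.90 ± 0.197), and Klf4, a factor of monocyte differentiation, at 3.08 and 4.49 against 15.6 and 17.2 CPM (log2 2.09 ± 0.226). Klf2, a factor of quiescence in monocytes and T cells, stood at 3.99 and 4.33 against 1.09 and 2.43 CPM (log2 -1.21 ± 0.378). Without LPS Klf4 was called lower in 3xGrk-/- cells, with 24.1 and 23.0 CPM in WT against 17.4 and 17.5 (log2 -0.43 ± 0.137). LPS lowered Klf4, Myc and Klf10 most in WT (log2 -2.61 ± 0.189, -2.56 ± 0.157 and -1.96 ± 0.216), and Myc, Klf2 and Trib1 most in 3xGrk-/- cells (log2 -3.09 ± 0.199, -2.54 ± 0.295 and -0.96 ± 0.116). In all, 8 of the 14 rose and 6 fell with LPS in WT, where 60.3% of all genes were called, while 5 rose and 5 fell in 3xGrk-/- cells, where 55.4% were called. The responses differed for 9 of the 14, beside 32.5% of all genes, most for Klf4 (2.52 ± 0.248), Klf10 (1.90 ± 0.251) and Klf2 (-1.38 ± 0.421).

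**Figure D5:**
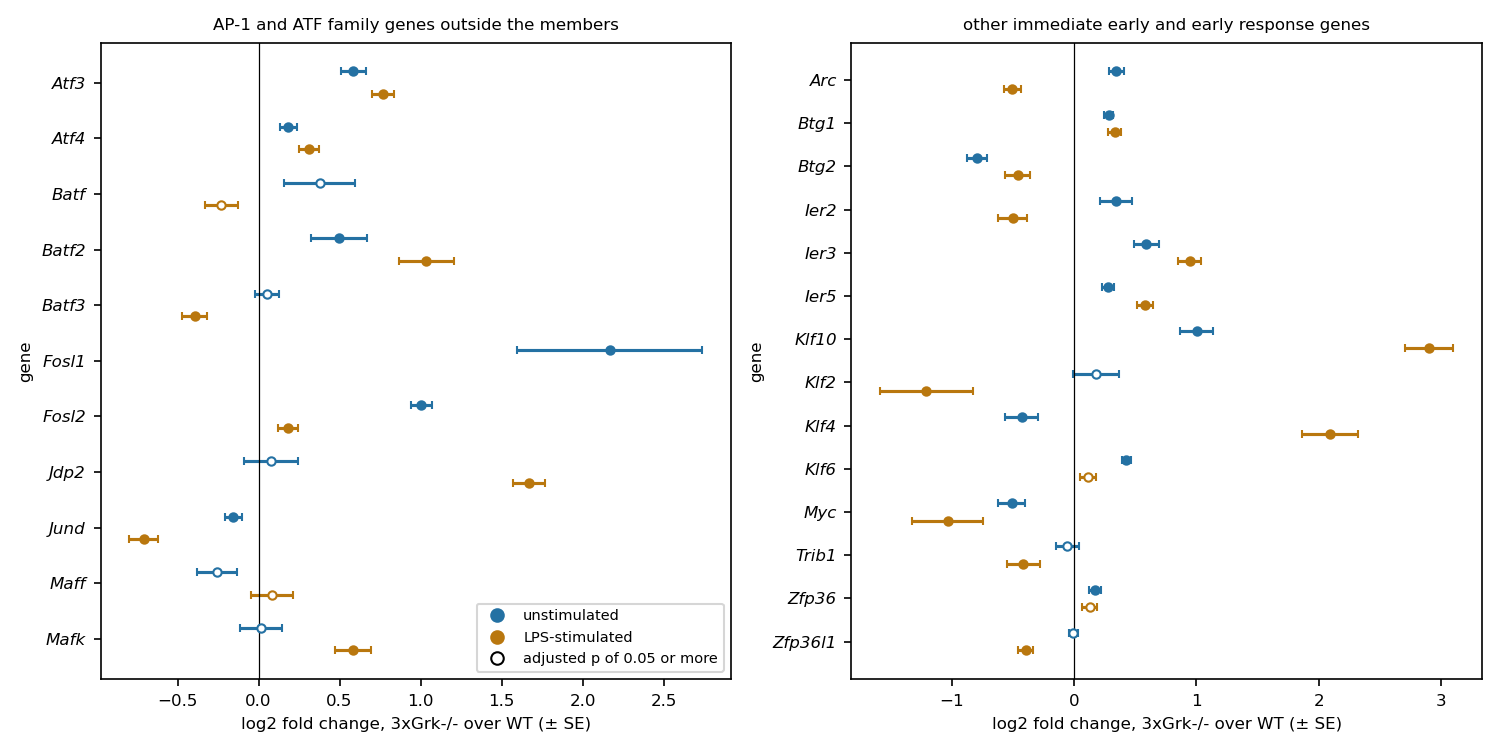
Log2 fold change of 3xGrk-/- over WT (horizontal axes, ± SE) for the other AP-1 and ATF genes (left) and for other immediate early and early response genes (right), without LPS in blue and with LPS in ochre, with open points where the adjusted p was 0.05 or more. Klf10 moved from 1.0 without to 2.90 with LPS and Klf4 from -0.43 to 2.09, while Klf2 lay at -1.21 with LPS.

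Of 26 regulators and partners of the members, 5 were higher in 3xGrk-/- cells, 4 lower and 17 did not pass without LPS, beside 44.7% of all genes called, with a median of 0.06 beside -0.00. With LPS 5 were higher, 7 lower and 14 did not pass, beside 48.6% of all genes called, with a median of 0.05 beside -0.01. Elk3, a ternary complex factor that binds with SRF, stood at 49.9 and 43.6 CPM in unstimulated WT against 97.4 and 91.2 in 3xGrk-/- (log2 1.03 ± 0.0788). Mrtfa, an actin-regulated coactivator of SRF, was lower in both states (log2 -0.53 ± 0.0455 without and -1.05 ± 0.0625 with LPS). Nab2, a corepressor of EGR1 and EGR2 that EGR factors induce, was higher in unstimulated 3xGrk-/- cells (log2 0.49 ± 0.126) and fell with LPS in WT (19.7 and 21.3 to 6.89 and 5.88 CPM, log2 -1.69 ± 0.169) and in 3xGrk-/- cells (log2 -1.57 ± 0.144), as the 3 EGR genes did. Nab1 of the same list went the other way, from 59.4 and 61.2 to 72.6 and 71.6 CPM with LPS in WT. In 3xGrk-/- cells Nab1 went from 58.6 and 58.5 to 94.9 and 85.4 CPM. Rxra, the heterodimer partner of NR4A1 and NR4A2, was higher in LPS-stimulated 3xGrk-/- cells (log2 1.42 ± 0.132) and Crtc2, a CREB coactivator, lower (log2 -0.80 ± 0.0669). LPS raised 9 and lowered 8 of the 26 in WT, beside 60.3% of all genes called, with Crem, a CREB family gene, at 1.52 ± 0.0772 and Rxra at -1.23 ± 0.126 among the largest, and raised 10 and lowered 9 in 3xGrk-/- cells, beside 55.4%, with Crem at 1.02 ± 0.0803 and Rps6ka3 at -1.19 ± 0.0782. The responses differed for 10 of the 26, beside 32.5% of all genes, most for Rxra (1.16 ± 0.163), Crtc2 (-0.72 ± 0.0893) and Srf (-0.61 ± 0.121).

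Genes known to respond to cAMP, as the NR4A genes and Fos do, were taken as a last list of 12. Without LPS 4 of the 11 tested were higher, 1 was lower and 6 did not pass in 3xGrk-/- cells, beside 44.7% of all genes called, with a median of 0.11 beside -0.00 over all genes. With LPS 7 of 12 were higher, 3 lower and 2 did not pass, beside 48.6% of all genes called, with a median of 0.39 beside -0.01. Thbs1, which encodes thrombospondin 1, stood at 289 and 288 CPM in unstimulated WT against 969 and 968 in 3xGrk-/- (log2 1.75 ± 0.0390), and with LPS the log2 fold change was 2.78 ± 0.0517. Ptgs2, the inducible cyclooxygenase COX-2, stood at 0.191 and 0.561 against 1.94 and 2.08 CPM without LPS (log2 2.26 ± 0.617) and at 69.1 and 42.9 against 452 and 448 CPM with LPS (log2 3.02 ± 0.119). Areg, the EGF receptor ligand amphiregulin, stood at 0 and 0.309 against 2.73 and 2.27 CPM with LPS (edgeR adjusted p = 0.000122), and Sik1, a kinase that restrains CREB coactivators, was lower in unstimulated 3xGrk-/- cells (log2 -0.87 ± 0.204). With LPS the direction of Sik1 turned, with 13.1 and 13.6 CPM in WT against 17.8 and 18.5 in 3xGrk-/- cells. LPS raised 8 of the 12 in WT and lowered none, where 29.5% of all genes were called higher and 30.8% lower, and raised 10 and lowered 1 in 3xGrk-/- cells, where 28.0% were called higher and 27.4% lower. Ptgs2 rose most in both genotypes (log2 7.03 ± 0.327 and 7.79 ± 0.173). Dusp1, a phosphatase of MAP kinases, rose by 1.75 ± 0.0650 in WT and 2.30 ± 0.0581 in 3xGrk-/- cells, Pde4b, a cAMP phosphodiesterase, by 1.70 ± 0.0541 in WT, and Areg by 2.32 ± 0.596 in 3xGrk-/- cells. The responses differed for 5 of the 12, beside 32.5% of all genes, among them Sik1 (1.31 ± 0.251), Thbs1 (1.04 ± 0.0583) and Gem (0.85 ± 0.332).

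The genes whose pattern over the 8 libraries lay nearest to each member were found by the root mean square difference of centred log2 CPM, as a description over libraries that share their groups. The nearest to Nr4a3 were Tmem150c (0.0664), Nckipsd (0.0957) and Marveld1 (0.112), and those to Nr4a2 were Col9a3 (0.223), Dusp1 (0.229) and Npc2 (0.232). Fos lay nearest to Ptgr1 (0.144), P2rx7 (0.156) and Adamtsl5 (0.187), and Egr2 nearest to Ptgs1 (0.199), Gna15 (0.249) and Fgr (0.251). Egr1 lay nearest to Tm4sf5 (0.110), Pilra (0.140) and Gm5424 (0.166), Jun to Kremen1 (0.0817), Bhlhe40 (0.0850) and Git1 (0.0893), and Junb to Chst11 (0.0610), Gm49342 (0.0713) and Cdk5r1 (0.0755). The low counts of Nr4a1 and Egr3 left wider gaps, with Serpini1 (0.438), Slc18a1 (0.504) and Map10 (0.512) nearest to Nr4a1, and Dtd1 (0.454), Tfap4 (0.463) and Olfr111 (0.463) nearest to Egr3. No member was counted among the neighbours of another, and Fosb, which passed no filter, was left out.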

How the data were processed

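RNA from BMDCs was sequenced by the authors from TruSeq stranded mRNA libraries, aligned to mm10 (GRCm38) with STAR and counted on genes with featureCounts within snakePipes. The annotation release and the strand setting are not given in the sources used here. The deposited values are unnormalized whole-number counts of reads on each gene, in 2 tables, 1 per stimulation. Groups, 4 of 2 libraries each, came from the labels, and doses, times and ages from the study's methods. Of the 47937 gene IDs, 47224 matched GENCODE M21 without their version and 39106 with it, and IDs without a match held 0.0847% of the counts. Within a group, libraries differed beyond sampling noise, with a mean chi-square per gene of 1.59 in unstimulated WT, 1.74 in unstimulated 3xGrk-/-, 3.07 in LPS-stimulated WT and 9.02 in LPS-stimulated 3xGrk-/-. The median over that expected from sampling alone was 1.16, 1.20, 1.92 and 1.30 in the same order, so that by the median LPS-stimulated WT differed most. In LPS-stimulated 3xGrk-/- cells Gm42418, a gene overlapping ribosomal RNA, held 2.16% of replicate 2. All libraries were kept as separate samples.

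The genotypes were compared within each table with edgeR 4.0.16 in R 4.3.3 (TMM, filterByExpr, glmQLFit and glmQLFTest, Benjamini-Hochberg adjusted p under 0.05), and LPS responses and their interaction with genotype in a single fit of the 8 libraries. Each standard error is the fitted log2 fold change over the square root of F. The fits were tested on simulated counts. A member with 3 counts or fewer in each library was taken to be at the floor. Sequences are RefSeq promoters on GRCm38.p6. The text names all members, the targeted Grk genes, the 3 largest called genes of each list and the 3 nearest genes in pattern. Members and lists were chosen with earlier results of these data known, and lists are described by counts and medians without a set test. Alternatives were DESeq2 1.42.0, RLE size factors, library size alone, no filter, a minimum of 10 counts per library, calls only for a log2 change of 1 or more in size, a coefficient of variation of 0.4, one fit for both genotype comparisons, the replicate number as a block, and each library left out.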

Additional observations from a re-analysis of the deposited data

Results flagged for a closer look

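The response to LPS differed between WT and 3xGrk-/- BMDCs for 2 of the 9 genes tested, by the interaction term of edgeR (quasi-likelihood test, p adjusted by Benjamini-Hochberg). Of all 12541 genes tested, 32.5% were called by this test. For Nr4a3 the difference was -1.15 on the log2 scale (adjusted p = 8.90e-13): both 3xGrk-/- libraries with LPS lay below both without, and both WT libraries with LPS lay above both without after TMM scaling. With library size alone the WT libraries overlapped and the rise in WT was not called (adjusted p = 0.126). The difference was between -1.22 and -1.07 when any 1 library was left out. For Jun it was -0.43 (adjusted p = 0.00811), with a rise in both genotypes, and it was between -0.54 and -0.31 when any 1 library was left out. The call for Jun was lost by DESeq2 (adjusted p = 0.0626) and without replicate 2 of LPS-stimulated 3xGrk-/-, replicate 2 of unstimulated 3xGrk-/- or replicate 1 of unstimulated WT (edgeR adjusted p = 0.0713, 0.100 and 0.0586). Groups of 2 libraries are too small for a test of single outlying libraries.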

How the results depend on the processing

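Over all genes no pairing of the libraries by replicate number was seen: deviations of same-numbered libraries from their group means correlated between -0.0184 and 0.0327 over 12541 genes. These deviations include counting noise, so the check cannot show a pairing that affects few genes. With the replicate number as a block, no call of a member changed, and 5292, 5654, 7438, 6793 and 3884 genes were called, against 5369, 5754, 7561, 6945 and 4070, for genotype without and with LPS, LPS in WT and in 3xGrk-/- cells, and the interaction, an order kept below. A coefficient of variation of 0.4 left 448, 782, 1110, 850 and 72 genes and 1, 1, 2, 2 and 0 of the 10 genes described. Requiring a log2 change of 1 or more in size left 1444, 1984, 2700, 2373 and 1375 genes and 1, 4, 7, 4 and 1 of the 10. DESeq2 called 3086, 3934, 5854, 5159 and 2643 genes, with Nr4a3 as the 1 member in the interaction. At least 10 counts in every library left 6404 genes and 5 members called for LPS in WT, where the low Nr4a1, Egr1 and Egr3 were no longer tested. Library size alone moved the share of higher calls from 49.3 to 35.8%, from 50.7 to 40.9%, from 49.0 to 31.1% and from 50.5 to 30.2% in the first 4 comparisons. Leaving out 1 library gave between 1 and 3 members in the interaction, 1 without LPS-stimulated 3xGrk-/- replicate 2, unstimulated 3xGrk-/- replicate 2 or unstimulated WT replicate 1, where Jun was lost. Differences that were not called changed sign in some settings, and the cause was not tested. They are given as the range over fits that each leave out 1 library. For genotype these were Egr3 without LPS (-0.42 to 0.19) and Jun with LPS (-0.12 to 0.0567). For the interaction these were Nr4a1 (-6.29 to 0.0395), Fos (-0.13 to 0.31), Egr3 (-3.12 to 2.69) and Junb (-0.0834 to 0.0358, and 0.0059 with at least 10 counts). No called value of a member changed sign in any of these settings. Depth limits Nr4a1, Fosb, Egr1 and Egr3, which had under 60 counts in the 2 libraries of every group.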

Other observations

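Heat shock genes, which are also induced early by stress, moved in both directions. Of 8 such genes, 6 were tested without LPS, of which 1 was higher (Hsph1, log2 0.48 ± 0.0898) and 1 lower (Hspa8, log2 -0.22 ± 0.0320) in 3xGrk-/- cells, beside 44.7% of all genes called. With LPS 4 of the 7 tested were higher and 2 lower, beside 48.6% of all genes called. Hspa1a, an inducible HSP70 gene, stood at 1.27 and 0.309 CPM in WT against 2.36 and 3.24 in 3xGrk-/- (log2 1.88 ± 0.518), its near-identical copy Hspa1b at 1.45 and 2.63 against 4.0 and 4.38 CPM (log2 1.0 ± 0.355), and Hspa8, the constitutive HSC70 gene, fell by 0.68 on the log2 scale. Reads that Hspa1a and Hspa1b share may be split between them. LPS raised Hsph1, a chaperone of the HSP110 type, in WT (log2 1.48 ± 0.0843) and in 3xGrk-/- cells (log2 1.28 ± 0.0781).

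The balance between members differed between the groups. Per length, Nr4a3 exceeded Nr4a2 by 90.0 and 110.5 times in unstimulated WT, 47.6 and 82.0 times in unstimulated 3xGrk-/-, 37.2 and 41.7 times in LPS-stimulated WT and 6.63 and 6.23 times in LPS-stimulated 3xGrk-/- libraries. Jun exceeded Fos by 25.8 and 20.1 times in unstimulated WT and 4.43 and 5.81 times in unstimulated 3xGrk-/- libraries, and by 65.9 and 63.8 times against 9.95 and 10.1 times with LPS. Junb exceeded Jun by 4.37 to 7.02 times in all 8 libraries.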
